A study of Homo sapiens with 4 samples.

Results

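The genes that carry a cell through the G1 phase were followed on 4 arrays: the D-type cyclins CCND1, CCND2 and CCND3, the E-type cyclins CCNE1 and CCNE2, the kinases CDK2, CDK4 and CDK6, the retinoblastoma gene RB1 and the transcription factor gene E2F1. All probe sets that the PrimeView annotation pairs with exactly 1 of these symbols were taken, which gave 28 probe sets for the 10 genes, out of 49293 probe sets and 18132 genes. Each gene was read by its brightest probe set, and the other 18 probe sets are described beside it. Per the labels, 2 arrays hold RNA of the breast cancer line Hs578T with a stable lentiviral shRNA against ELK3 (ELK3 knockdown, replicates 1 and 5), and 2 hold RNA of the same line with an sh control (replicates 1 and 2). Both groups were grown with serum and insulin, and the labels describe a transduction for the knockdown cells. What a replicate number marks (another shRNA, clone or dish) is not in the labels, so the p-values measure the spread between these arrays, which may be technical.

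In G1, growth signals raise D-type cyclins, which bind CDK4 or CDK6. These complexes phosphorylate the RB protein, which otherwise holds E2F factors inactive on their target genes. Released E2F factors turn on genes for DNA synthesis and the E-type cyclins, which with CDK2 phosphorylate RB further. ELK3 encodes an ETS family factor of the ternary complex group, which acts with serum response factor downstream of growth signals. Tissues differ in which D-type cyclin they use, and CCND1 is a known oncogene of breast cancer.

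The targeted gene was checked first. ELK3 had RMA log2 signals of 8.09 and 7.92 in the knockdown arrays, against 10.05 and 10.07 in the control arrays, a log2 change of -2.06 (SE 0.09, limma adjusted p = 2.57e-06), and its other probe set stood at -2.04. The knockdown and control arrays differed widely. The correlation over probe sets, given as a description since probe sets are no replicates, was 0.996 within the knockdown pair and 0.998 within the control pair, against 0.902 to 0.904 between the groups. Markers of a mesenchymal breast line such as Hs578T were lower in the knockdown arrays for 13 of 13 genes, with group means of 3.69 to 13.12 in the knockdown arrays and 10.11 to 14.29 in the control arrays. Among them the cadherin gene CDH11 averaged 3.69 and the receptor gene AXL 5.62 in the knockdown arrays, against 10.87 and 12.88 in the control arrays. Of 9 epithelial and luminal markers 3 were higher in the knockdown arrays, near the share of all genes that were higher. They were the keratin genes KRT8, KRT18 and KRT19, and CDH1 and EPCAM were dim in both groups. The group means of these 9 spanned 3.76 to 12.85 in the knockdown arrays and 3.83 to 10.65 in the control arrays. Of 6 genes known from embryonic kidney lines of the kind used to package lentivirus, LHX1, LIN28B and NEFL were higher and PAX2, NEFM and INA did not pass, with means of 4.99 to 11.52 in the knockdown arrays and 4.04 to 8.66 in the control arrays. The marker lists were chosen with earlier results of these data known, so they cannot identify the cells on an array. Of 5 immune and endothelial markers measured, 1 was lower in the knockdown arrays (PECAM1), near the share of all genes that were lower, and 0 higher. Their means were 3.62 to 6.06 in the knockdown arrays and 3.73 to 6.63 in the control arrays. COL6A3 and COL1A2, collagen genes of the mesenchymal list, had means of 5.17 and 5.30 in the knockdown arrays, against 13.75 and 13.67 in the control arrays. LIN28B averaged 10.51 and LHX1 8.31 in the knockdown arrays, against 4.21 and 4.04 in the control arrays. Other mesenchymal markers, though lower, stayed bright in the knockdown arrays. VIM averaged 13.12, CAV1 11.13 and SPARC 11.07 there, against 14.29, 13.51 and 14.09 in the control arrays. CDH11, AXL, COL6A3 and COL1A2 were thus dim in the knockdown arrays and bright in the control arrays, though both groups are labelled Hs578T. Whether the knockdown arrays hold RNA of the same line as the control arrays was not tested. Since the markers move with the groups, a difference of line and the ELK3 knockdown cannot be told apart. Each change given here is therefore one between the arrays so labelled. In RNA from whole cultures, fewer cells of a type and less RNA per cell cannot be told apart.

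Among the 10 genes the D-type cyclin genes CCND1 and CCND2 had the largest changes by their brightest probe sets, in opposite directions. CCND1 fell 12.7-fold in the knockdown arrays, and CCND3 did not pass. CCND2 rose 35.9-fold by a probe set whose name marks possible cross-hybridisation, and its other 2 probe sets changed by 0.80 and 0.27 on the log2 scale. With such probe sets left out the change of CCND2, 0.80, was smaller in size than that of CCNE2, -0.87. CCNE2 and CDK6 also fell, by less than 2-fold, and CDK4 and CDK2 rose by less than 1.5-fold, while CCNE1, RB1 and E2F1 did not pass. At an adjusted p under 0.05 over all genes (limma), 3 of the 10 genes rose, 3 fell and 4 did not pass. Over all 18132 genes tested 50.8% passed, 29.5% higher and 21.3% lower in the knockdown arrays, so the 60% of members that passed lies near the background. The median log2 change of the 10 genes was -0.07, beside -0.01 over all genes. The median size of change was 0.35 for the 10 genes and 0.30 for all genes.

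**Figure D1:**
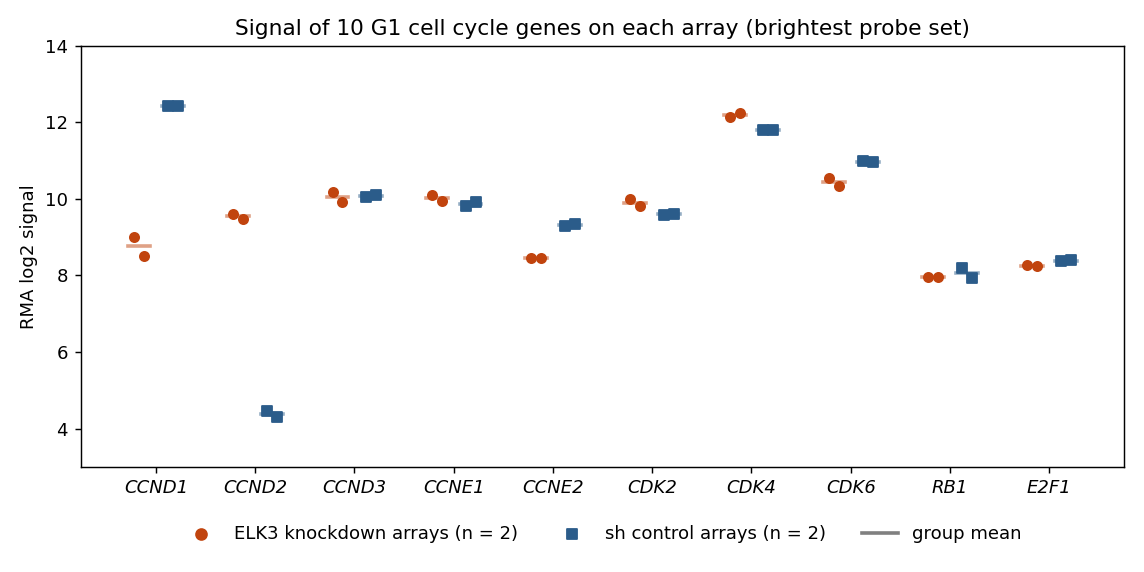
RMA log2 signal of the brightest probe set of each of the 10 genes on every array; circles are the 2 knockdown arrays, squares the 2 control arrays and bars the group means. CCND1 stands at 9.00 and 8.51 in the knockdown arrays against 12.43 in both control arrays, and CCND2 at 9.61 and 9.49 in the knockdown arrays against 4.45 and 4.31 in the control arrays; signals of different genes are not on a common scale.

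CCND1 encodes cyclin D1, which links growth signals to CDK4 and CDK6. Its brightest probe set read 9.00 and 8.51 in knockdown replicates 1 and 5, against 12.43 and 12.43 in control replicates 1 and 2. Both knockdown arrays lay far below both control arrays. The mean was 8.76 ± 0.35 in the knockdown arrays and 12.43 ± 0.0028 in the control arrays (SD, n = 2 each), a log2 change of -3.67 (SE 0.15, limma adjusted p = 1.72e-06). The knockdown arrays differed from each other more than the control arrays did, but leaving out either one left the change between -3.91 and -3.42. All 4 CCND1 probe sets fell, by 12.7-fold to 19.1-fold, and none of their names marks cross-hybridisation. The other 3 read 5.78 to 6.32 in the knockdown arrays and 9.90 to 10.33 in the control arrays, so no array of one group came near the other group. A larger fall was measured for 176 of the 18132 genes.

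CCND2 encodes cyclin D2, which binds the same kinases and is known from mouse mutants to be needed in ovary and testis. Its brightest probe set read 9.61 and 9.49 in knockdown replicates 1 and 5, against 4.45 and 4.31 in control replicates 1 and 2. The knockdown arrays were both high and the control arrays both at the dim end. The mean was 9.55 ± 0.083 in the knockdown arrays and 4.38 ± 0.099 in the control arrays (SD, n = 2 each), a log2 change of 5.17 (SE 0.11, limma adjusted p = 2.17e-07). The control mean lay at the 14.1 percentile of all probe sets, near the dim end of the table. Of the 3 CCND2 probe sets this one is the brightest in the knockdown arrays and the dimmest in the control arrays, so its choice rests on the knockdown values. The table holds no call above background, and the size of the rise is that of this probe set only. A second probe set read 5.93 and 6.05 in the knockdown arrays, against 5.05 and 5.32 in the control arrays, a log2 change of 0.80 (SE 0.13, limma adjusted p = 0.00182 over all probe sets). The third read 5.18 and 5.30 in the knockdown arrays, against 4.83 and 5.10 in the control arrays, and did not pass (0.27, adjusted p = 0.127). In all 3 probe sets the knockdown arrays were higher than the control arrays without overlap. Averaged over the 3 probe sets the change was 2.08. With the one marked for cross-hybridisation left out, the gene was read by the second probe set alone (0.80), and both passed.

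CCND3 encodes cyclin D3, the third D-type cyclin. It read 10.18 and 9.93 in knockdown replicates 1 and 5, against 10.05 and 10.11 in control replicates 1 and 2. The knockdown values lay on either side of the control values. The log2 change was -0.02, with a 95% interval of -0.25 to 0.21 (limma adjusted p = 0.871). Its sign turned without knockdown replicate 5 (0.10) and without control replicate 2 (0.0050). Its other probe set read 4.01 on all 4 arrays, at the dim end of the table. The D-type cyclins changed unequally within the same arrays: the log2 ratio of CCND2 to CCND1 was higher in the knockdown arrays by 8.83, and by 8.58 to 9.09 over the pairings of a knockdown with a control array. That of CCND3 to CCND1 was higher by 3.65, and by 3.50 to 3.79 over the pairings. With the mean of all probe sets these ratios moved to 6.02 and 3.93. With probe sets marked for cross-hybridisation left out that of CCND2 to CCND1 was 4.47. No test was run on the ratios, and an exact permutation test of 2 arrays against 2 could give no p below 0.333.

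**Figure D2:**
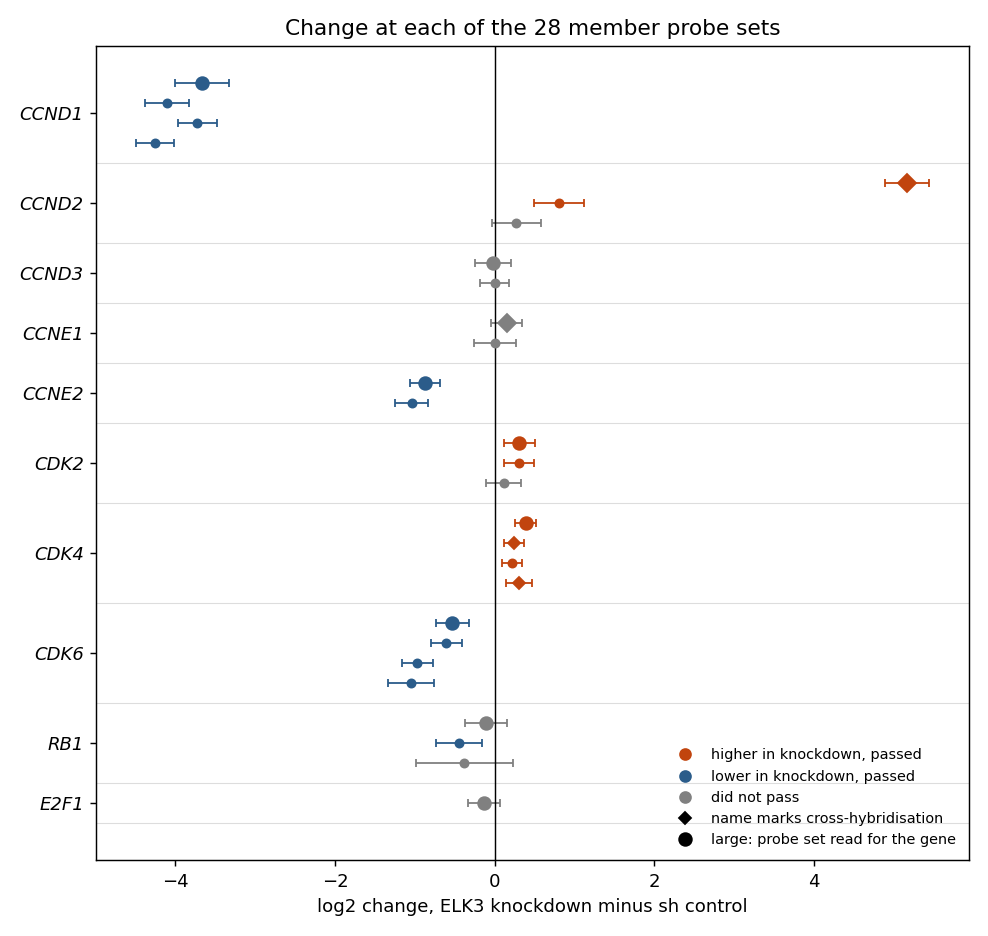
Log2 change, knockdown minus control, at each of the 28 probe sets with its 95% interval from the limma fit over all probe sets; diamonds have names that mark cross-hybridisation and large symbols are the probe sets read for the genes. All 4 CCND1 probe sets lie between -4.26 and -3.67, while those of CCND2 spread from 0.27 to 5.17.

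The E-type cyclins activate CDK2 at the start of DNA synthesis. CCNE2, which encodes cyclin E2, read 8.45 and 8.45 in knockdown replicates 1 and 5, against 9.30 and 9.35 in control replicates 1 and 2. The knockdown arrays were equal to 2 decimals and both below the control arrays. The log2 change was -0.87 (SE 0.08, limma adjusted p = 9.80e-05), or 1.83-fold lower. Its other probe set fell as well, by 1.04 on the log2 scale, with 7.63 and 7.64 in the knockdown arrays against 8.68 and 8.68 in the control arrays. CCNE1, which encodes cyclin E1, read 10.09 and 9.95 in the knockdown arrays, against 9.82 and 9.93 in the control arrays. The groups were apart by a narrow margin and the gene did not pass (0.15, 95% interval -0.05 to 0.35, limma adjusted p = 0.189). Without knockdown replicate 5 CCNE1 passed (0.22, adjusted p = 0.0154), and its other probe set stood at 0.0014. The log2 ratio of CCNE2 to CCNE1 was lower in the knockdown arrays, with a change of -1.02 and -1.12 to -0.92 over the pairings.

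CDK4 and CDK6 are the partners of the D-type cyclins. CDK4 read 12.15 and 12.24 in knockdown replicates 1 and 5, against 11.80 and 11.81 in control replicates 1 and 2. Both knockdown arrays lay above both control arrays, and the rise of 0.39 (SE 0.05, limma adjusted p = 8.04e-04) amounts to 1.31-fold. All 4 CDK4 probe sets rose, by 1.16-fold to 1.31-fold, but without control replicate 1 or without control replicate 2 the other 3 did not pass. CDK6 read 10.56 and 10.33 in the knockdown arrays, against 10.98 and 10.96 in the control arrays. Here both knockdown arrays lay below the control arrays, and the log2 change was -0.53 (SE 0.09, limma adjusted p = 0.00175). All 4 CDK6 probe sets fell, by 1.44-fold to 2.07-fold, with the largest fall at the dimmest of them, which read 6.26 and 6.30 in the knockdown arrays and 7.21 and 7.44 in the control arrays. The log2 ratio of CDK6 to CDK4 was lower in the knockdown arrays, with a change of -0.92 and -1.09 to -0.74 over the pairings. None of these 8 probe sets had overlapping groups, and over all probe sets 74.5% were apart.

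CDK2, the partner of the E-type cyclins, read 9.99 and 9.82 in knockdown replicates 1 and 5, against 9.58 and 9.62 in control replicates 1 and 2. Both knockdown arrays were the higher ones, with a log2 change of 0.31 (SE 0.08, limma adjusted p = 0.0192). This call was lost without control replicate 1 (0.29, adjusted p = 0.133) and without control replicate 2 (0.33, adjusted p = 0.0966). A second CDK2 probe set rose by 0.30, a call also lost without either control array, and the third did not pass (0.11), with overlapping groups.

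The sequence before the start of CDK4 is shown because it repeats the letters bound by MYC with its partner MAX, while that of CDK6 does not hold them; MYC is described among the regulators of D-type cyclins. The 250 bases before the start (GRCh38.p14, minus strand, chr12:57752311-57752560, RefSeq) hold CACGTG, the E-box core, 3 times, shown in capitals, beginning 216, 196 and 101 bases before the start. The motif was chosen after the sequence was seen, reads the same on both strands, and occurs at least once in the same window of 6.34% of 35116 RefSeq promoter entries. The share of entries with 3 matches was not counted. The match describes letters only, and binding was not tested. In the knockdown arrays MYC was 3.09-fold lower and CDK4 1.31-fold higher, and an effect of MYC on CDK4 or CDK6 was not tested.
CDK4: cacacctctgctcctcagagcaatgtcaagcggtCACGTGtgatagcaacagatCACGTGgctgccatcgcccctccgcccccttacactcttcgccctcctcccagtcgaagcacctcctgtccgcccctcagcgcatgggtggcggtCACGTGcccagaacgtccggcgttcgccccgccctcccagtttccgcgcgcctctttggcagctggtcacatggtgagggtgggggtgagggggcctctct

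RB1 encodes the RB protein, which represses E2F targets until it is phosphorylated. It read 7.96 and 7.95 in knockdown replicates 1 and 5, against 8.19 and 7.94 in control replicates 1 and 2. The groups overlapped, and the log2 change was -0.11 (95% interval -0.38 to 0.16, limma adjusted p = 0.478). The sign turned to 0.019 without control replicate 1. Of its 3 probe sets 1 fell (-0.44, adjusted p = 0.0192 over all probe sets), with 7.24 and 7.49 in the knockdown arrays against 7.75 and 7.86 in the control arrays, and this call was lost without either control array. The dimmest read 4.86 and 5.28 in the knockdown arrays, against 5.84 and 5.06 in the control arrays, and did not pass. E2F1, the founding activator of the E2F family, has 1 probe set, which read 8.26 and 8.24 in the knockdown arrays, against 8.37 and 8.40 in the control arrays. The knockdown arrays were slightly lower without overlap, and the gene did not pass (-0.13, 95% interval -0.34 to 0.08, limma adjusted p = 0.256). The log2 ratio of E2F1 to RB1 changed by -0.03, and over the pairings by -0.18 to 0.13. An interval that includes 0 does not show that these genes stayed the same.

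E2F1 is known to be a target of E2F factors itself, and the 250 bases before its start are printed to show where the motif lies (GRCh38.p14, minus strand, chr20:33686386-33686635, RefSeq). The letters searched on both strands were TTTCCCGC, TTTCGCGC, TTTGCCGC and TTTGGCGC. There are 2 matches, in capitals, beginning 33 bases before the start (TTTGCCGC read on the other strand) and 20 bases before it (TTTGGCGC), and 2.79% of the 35116 entries hold any match in this window. Entries were found for 6 of the 10 genes (CCND3, CCNE1, CDK4, CDK6, RB1 and E2F1) and not for CCND1, CCND2, CCNE2 and CDK2, and of the 9 entries only that of E2F1 holds these letters. Whether an entry lies at the main start of its gene was not checked, for RB1 among others, so a promoter outside these entries was not searched. The ETS letters CCGGAAG occur in 1 of the 9, an entry of CCND3, and in 8.52% of all entries.
E2F1: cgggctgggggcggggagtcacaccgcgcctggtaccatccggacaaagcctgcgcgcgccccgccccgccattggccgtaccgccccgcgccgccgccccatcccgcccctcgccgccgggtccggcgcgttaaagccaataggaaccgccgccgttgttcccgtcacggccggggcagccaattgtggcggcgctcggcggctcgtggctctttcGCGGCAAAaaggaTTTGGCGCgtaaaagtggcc

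Over the 28 probe sets of the 10 genes, 8 rose, 11 fell and 9 did not pass in the fit over all probe sets, in which 49.2% of all probe sets passed, 27.0% higher and 22.1% lower. Calls of CDK2, CDK4 and RB1 probe sets were lost without control replicate 1 or without control replicate 2, as given above. The share of all probe sets that passed in those fits was not counted. Probe sets of a gene share its transcripts and are not independent, and those of CCND1, CDK4 and CDK6 make up 12 of the 19 that passed. For no gene did 1 probe set rise and another fall. The groups were apart for 22 of the 28, where 74.5% of all probe sets were apart, and for 8 of the 10 genes, where 75.3% of all genes were apart. The study's own thresholds, a fold above 1.5 with an unadjusted p below 0.05, were applied to the limma fit of the brightest probe sets. They held 3 of the 10 genes, CCND2 higher and CCND1 and CCNE2 lower, beside 31.7% of all genes, 19.1% higher and 12.6% lower. Among all genes, 1.77% had a change larger in size than that of CCND1, against 94.7% for CCND3.

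**Figure D3:**
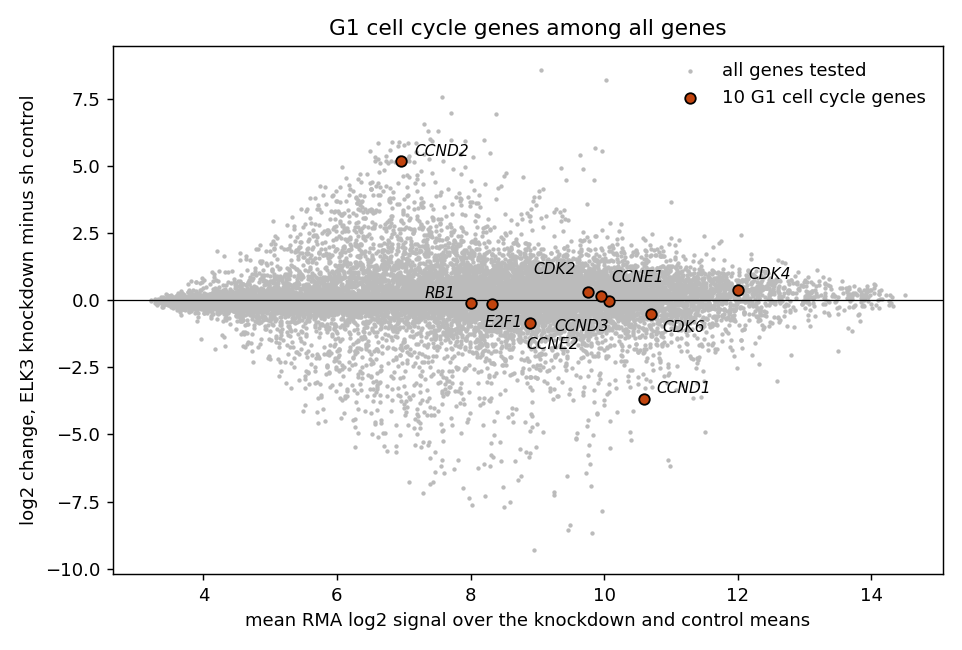
Log2 change, knockdown minus control, against the mean of the knockdown and control signals for all 18132 genes (grey) with the 10 G1 genes marked. By their brightest probe sets CCND2 at 5.17 and CCND1 at -3.67 stand at the edges of the cloud, and the other 8 lie between -0.87 and 0.39.

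The partners and relatives of RB and E2F moved mostly upward. Among 11 measured genes 7 rose and 2 fell, while 2 did not pass, beside 29.5% of all genes higher and 21.3% lower. The median log2 change was 0.47, beside -0.01 over all genes. Among the rises, E2F2 (0.04) and E2F6 (0.28) lost their calls when probe sets marked for cross-hybridisation were dropped. With the mean of its probe sets E2F2 stood at 0.24 and did not pass. TFDP2, a DNA-binding partner of E2F factors, read 9.66 and 9.54 in the knockdown arrays, against 7.88 and 7.86 in the control arrays, and rose 3.31-fold (limma adjusted p = 5.32e-06). The activator gene E2F3 rose 2.06-fold and the repressor gene E2F8 1.68-fold. E2F7, another repressor and the closest relative of E2F8, fell 2.88-fold, with 9.04 and 8.76 in the knockdown arrays against 10.45 and 10.40 in the control arrays (adjusted p = 2.12e-05). The RB relative RBL1 (p107) fell 1.41-fold.

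The inhibitors of cyclin-dependent kinases passed in 6 of 6 measured genes, 5 higher and 1 lower, with a median log2 change of 1.65, where 50.8% of all genes passed, 29.5% higher and 21.3% lower. Their median size of change was 2.05, beside 0.35 for the 10 G1 genes and 0.30 for all genes. CDKN1C (p57) read 9.10 and 10.02 in the knockdown arrays, against 5.20 and 5.92 in the control arrays, and rose 16.0-fold (limma adjusted p = 5.09e-05). CDKN2A, which encodes p16, an inhibitor of CDK4 and CDK6, and the p53 activator ARF, read 10.98 and 10.90 in the knockdown arrays, against 7.81 and 7.80 in the control arrays, and rose 8.79-fold (adjusted p = 2.95e-07). CDKN1A (p21) rose 3.80-fold, CDKN1B (p27) 2.60-fold and CDKN2B (p15) 1.50-fold. CDKN2D (p19) was the one that fell, 4.52-fold, with 6.90 and 6.37 in the knockdown arrays against 8.77 and 8.84 in the control arrays. With the mean of their probe sets CDKN1C stood at 4.81 and CDKN2A at 4.62 on the log2 scale, and CDKN2B at 0.22 without passing. Without moderation of the variances 1 of the 6 passed, CDKN2A.

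Target genes of E2F that act at the entry to S phase rose in 12 of 19, fell in 3 and did not pass in 4, with a median log2 change of 0.34, where 29.5% of all genes were higher and 21.3% lower. POLA1, the catalytic subunit of DNA polymerase alpha, read 11.71 and 11.62 in the knockdown arrays, against 10.20 and 10.20 in the control arrays, and rose 2.76-fold (limma adjusted p = 2.27e-06). CDC25A, the phosphatase that activates CDK2, rose 2.34-fold, and TYMS, which makes thymidylate, 1.86-fold. RRM2, the small subunit of ribonucleotide reductase, fell 2.78-fold, with 11.32 and 11.29 in the knockdown arrays against 12.77 and 12.80 in the control arrays (adjusted p = 8.83e-07). TK1, thymidine kinase, fell 1.62-fold and the helicase subunit gene MCM5 1.26-fold, and MCM5 lost its call without control replicate 1 (-0.27) or 2 (-0.40). Mitosis and proliferation markers rose in 7 of 8 and fell in 0 (29.5% and 21.3% of all genes), with a median of 0.49, led by the checkpoint kinase gene BUB1 (1.86-fold), CCNB1, the mitotic cyclin B1 (1.78-fold), and PLK1, a mitotic kinase (1.69-fold). These are the same arrays in which 13 of 13 mesenchymal markers were lower, and the part of that difference was not tested.

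**Figure D4:**
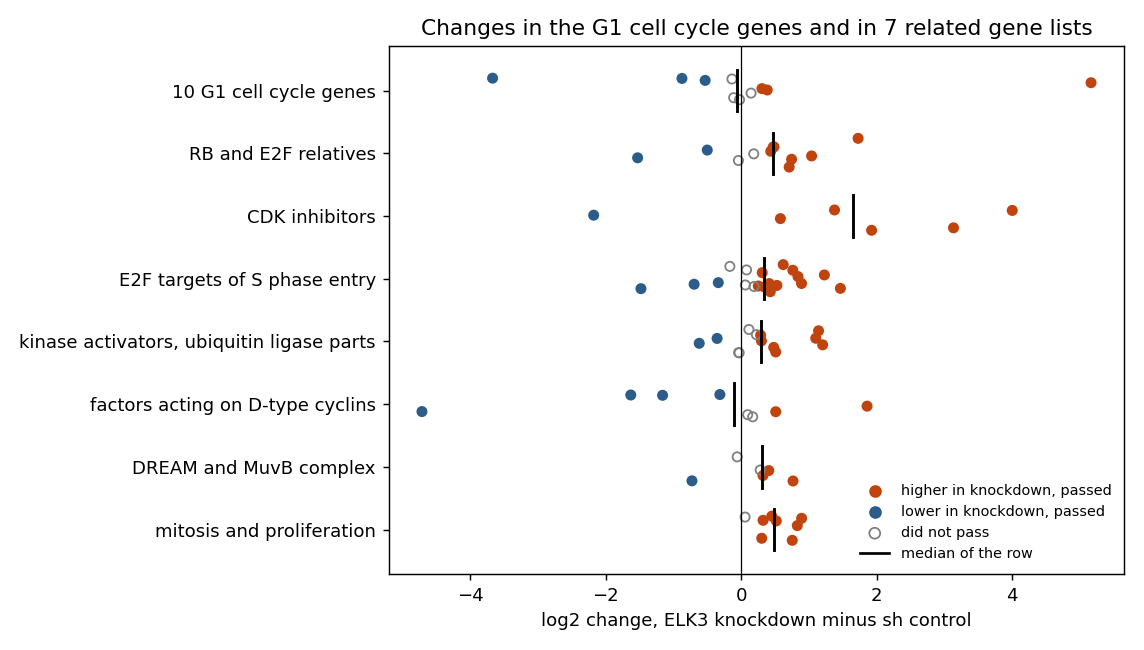
Log2 change, knockdown minus control, of the 10 G1 genes and of 7 related gene lists; filled points passed, open points did not, and the bar is the median of each row. The kinase inhibitors have a median of 1.65 and the mitosis genes of 0.49, while the 10 G1 genes have a median of -0.07.

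Regulators around the cyclins changed in both directions, in a comparison where 29.5% of all genes rose and 21.3% fell. Of 13 genes listed as kinase activators and ubiquitin ligase parts, 7 rose and 2 fell, with a median log2 change of 0.29. AMBRA1, which directs D-type cyclins to degradation, read 9.17 and 9.14 in the knockdown arrays, against 7.89 and 8.02 in the control arrays, and rose 2.30-fold (limma adjusted p = 3.50e-05). SKP2, which directs p27 to degradation, rose 2.21-fold. WEE1, which rose 2.15-fold, is in this list but is neither of these, since its kinase inhibits cyclin-dependent kinases. The F-box genes FBXO4 and FBXO31, both linked to cyclin D1 turnover, fell 1.53-fold and 1.28-fold, and FBXO31 lost its call without control replicate 1 (-0.36) or 2 (-0.35). Of 8 transcription factors known to act on D-type cyclin genes, 2 rose and 4 fell, with a median of -0.11. FOSL1, an AP-1 subunit, fell 26.2-fold, or -3.40 on the log2 scale with the mean of its probe sets. MYC read 9.77 and 9.56 in the knockdown arrays, against 11.31 and 11.28 in the control arrays, and fell 3.09-fold (adjusted p = 5.81e-06), and ETS2 fell 2.23-fold. TCF7L2, a mediator of WNT signalling, rose 3.63-fold, or by 1.10 on the log2 scale with the mean of its probe sets. CTNNB1, its partner beta-catenin, rose 1.43-fold, a call that was lost (0.15) when probe sets marked for cross-hybridisation were dropped. Of 6 genes of the DREAM and MuvB complex, which holds cell cycle genes silent in resting cells, 3 rose and 1 fell, with a median of 0.30. RBBP4 rose 1.70-fold and LIN37 fell 1.65-fold. LIN52 (0.41) and FOXM1 (0.32), a factor that joins the complex later in the cycle, rose, but without control replicate 2 neither passed (0.33 and 0.35), which left 2 genes of the list. LIN52 also lost its call without knockdown replicate 5 (0.29) and when its probe sets were averaged (0.29), and FOXM1 without control replicate 1 (0.30).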

How the data were processed

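The deposited table gives log2 signals of one-colour PrimeView arrays. The authors normalized them with RMA, according to the submitters' processing notes. RMA values carry no call above background, and the number of arrays limits the precision. Array medians lay between 6.76 and 6.80. Probe sets were named from the platform annotation, and 44988 carry a single symbol. Each gene was read by its probe set with the highest mean over the 4 arrays. Differences were tested in R 4.3.3 with limma 3.58.1 (lmFit, eBayes with intensity trend, group as the only factor, two-sided, Benjamini-Hochberg over all genes or all probe sets, adjusted p under 0.05), with 2 residual degrees of freedom. The fit was tested on simulated data in which few genes changed. Here 50.8% of all genes passed, so that run does not test the calls made here. Named list genes are the up to 3 largest rises and falls that passed in each list, and all kinase inhibitors. CDKN2C was not analysed here. The members and lists were chosen with earlier results of these data known. Alternatives changed the moderation, probe set choice, dim-gene filter, normalization, threshold and arrays. Promoter sequences are from RefSeq, GRCh38.p14.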

Additional observations from a re-analysis of the deposited data

How the results depend on the processing

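CCND1, CCND2 and CCNE2 kept their direction and call under all 14 alternatives, with log2 changes of -3.94 to -3.42 for CCND1, 0.80 to 5.24 for CCND2 and -0.96 to -0.85 for CCNE2. For CCND2 most alternatives read the same probe set marked for cross-hybridisation. Only the mean and the setting without such probe sets did not rest on it alone. The CCND2 probe set that changed by 0.80 lost its call without moderation of the variances. CDK4 passed in 13, CDK6 in 12 and CDK2 in 9 of 14. Without moderation of the variances 5091 genes passed, 2926 higher and 2165 lower, and 9 member probe sets, 2 higher and 7 lower; the related lists then had 4 (RB and E2F relatives), 1 (kinase inhibitors), 9 (E2F targets), 2 (DREAM and MuvB) and 3 (mitosis) genes that passed. With a fold over 1.5 and unadjusted p under 0.05, 5753 genes passed, 3469 higher and 2284 lower, 3 member genes with 1 higher, and 11 member probe sets with 2 higher; the lists had 5 (RB and E2F relatives), 8 (E2F targets), 4 (kinase activators and ubiquitin ligase parts), 2 (DREAM and MuvB) and 3 (mitosis). At an adjusted p under 0.01, 5 member probe sets were higher. The share of all probe sets that passed was not counted under the alternatives. The member probe set counts given here therefore have no background beside them. With the mean of all probe sets the log2 ratio of CCND2 to CCND1 changed by 6.02, of CCND3 to CCND1 by 3.93 and of E2F1 to RB1 by 0.18, a turn of sign. With probe sets marked for cross-hybridisation left out the log2 ratio of CCND2 to CCND1 changed by 4.47 and of CCNE2 to CCNE1 by -0.87. The dimmer CCNE1 probe set turned to -0.027 with quantile normalization and -0.020 with array medians subtracted, and the dimmer CCND3 probe set to 0.039 with quantile normalization. Leaving out each array in turn changed calls among CCNE1, CDK2, CDK4 and RB1 probe sets and among DREAM and MuvB genes, as described above. It moved CCND3 over -0.15 to 0.10, RB1 over -0.24 to 0.019, its dimmest probe set over -0.77 to 0.0045, the dimmer CCND3 probe set over -0.00091 to 0.00091 and the dimmer CCNE1 probe set over -0.10 to 0.11. The cause of these shifts was not tested. No paired analysis was possible because the groups share 1 replicate number only.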
